A study of Homo sapiens with 6 samples.

Results

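Heat shock proteins and the DNAJ co-chaperones that work with them were followed in lenvatinib-resistant and lenvatinib-sensitive liver cancer cells. The members are the genes whose symbols start with HSPA, HSPB, HSPD1, HSPE1, HSPH1, HSP90A or DNAJ, 67 of the 24432 symbols measured. Of 79 symbols with these letters, 12 were left out: HSPA5, DNAJB9, DNAJC3, HSPBP1 and HSPBAP1, 4 antisense symbols and 3 noncoding transcripts that start beside a member and run away from it. The rule goes by symbol and uses no measured value. The 67 genes comprise 27 heat shock protein genes (11 HSP70s, 3 HSP110s, 2 HSP90s, the 2 chaperonin genes and 9 small heat shock protein symbols) and 40 DNAJ genes (3 DNAJA, 10 DNAJB and 27 DNAJC).

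RNA-seq was carried out on 2 groups of 3 libraries, all labelled as wild type and as PLC/PRF/5, a long-established line of human liver cancer cells. The resistant cells had been passaged in rising doses of lenvatinib, an inhibitor of the VEGF and FGF receptor kinases, and the sensitive cells were the control. The labels give 20 µmol/L as the first dose, 0.5 mmol/L as the step at each passage and 40 mmol/L as the last, so the units of the first dose and of the later ones do not match. Lenvatinib is labelled for the resistant libraries alone, so drug exposure and resistance cannot be told apart. Nothing says that the libraries of a group came from separate cultures or from more than a single selected population, so a p-value here is set against a spread between libraries that may be technical. In bulk RNA, fewer cells of a kind and less RNA per cell cannot be told apart either.

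HSP70 proteins bind exposed hydrophobic stretches of unfolded proteins in a cycle driven by ATP. J-domain proteins, encoded by the DNAJ genes, deliver clients and stimulate ATP hydrolysis, HSP110 proteins exchange the nucleotide, HSP90 acts on later folding states of kinases and receptors, and small heat shock proteins hold unfolded chains without ATP. Many of the cytosolic members are induced by the transcription factor HSF1, which binds inverted repeats of the unit GAA in their promoters, while others are constitutive or serve mitochondria or the endoplasmic reticulum.

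The summed values of a library were 366048 to 377923 FPKM (fragments counted relative to transcript length and library size) in resistant and 410492 to 475088 FPKM in sensitive libraries, and each library had 10391 to 10916 genes at 1 FPKM or more. The spacing of the low values put sequencing depth within 3.46% between libraries, but only ratios near 1 were searched. A larger difference in depth could thus have been missed. Across the tested genes, resistant libraries correlated at Pearson's r of 0.994 to 0.996, sensitive replicates 1 and 2 at 0.995, and sensitive replicate 3 at 0.952 and 0.964 with the other sensitive libraries, so replicate 3 stood apart in its group. Between resistant and sensitive libraries r was 0.680 to 0.706. Genes are not independent replicates, and these r values describe the libraries only. Mitochondrial mRNAs made up 7.18 to 7.84% of all FPKM in resistant and 16.3 to 17.4% in sensitive libraries. Hepatocyte markers went with the groups: all 13 tested of 15 were lower in resistant libraries. Among them, ALB, APOH, TF, FGB and HNF4A were under 1 FPKM in every resistant library. These entered the test through the sensitive libraries alone, which fixed their direction. The 15 summed to 20.2 to 52.5 FPKM in resistant and 5415 to 5723 FPKM in sensitive libraries. TTR and HP were not tested. They were listed at 0 in each resistant library and at no more than 0.850 and 0.0673 FPKM in the sensitive ones. Cholangiocyte markers summed to 119 to 136 FPKM in resistant and 28.7 to 33.8 FPKM in sensitive libraries, with KRT7 and SOX9 higher, EPCAM lower and the other 2 of 5 not tested. KRT7 was under 1 FPKM in every sensitive library, so its direction was fixed likewise. Leukocyte markers summed to 2.77 to 5.43 FPKM in resistant and 249.6 to 268 FPKM in sensitive libraries, with LYZ and CD68 lower, PTPRC listed at 0 in all 6 libraries and 2 of 5 tested. Endothelial markers summed to 11.7 to 12.8 FPKM in resistant and 8.54 to 14.4 FPKM in sensitive libraries (1 of 6 tested, EGFL7, which did not pass, and KDR listed at 0 throughout). None of the 7 fibroblast markers in the files was tested, at sums of 0.0552 to 0.241 FPKM in resistant and 0.938 to 1.81 FPKM in sensitive libraries. Whether the resistant libraries came from the labelled line, and what part these differences have in the values below, was not tested.

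Summed over the members, chaperone transcripts were at a lower level in resistant cells, and most of the difference lay among the heat shock protein genes. The 67 members summed to 2442, 2532 and 2522 FPKM in resistant replicates 1 to 3, against 4971, 4784 and 3626 FPKM in sensitive replicates 1 to 3. That was 0.646, 0.692 and 0.686 percent of all FPKM in the resistant libraries, against 1.21, 1.12 and 0.763 percent in the sensitive ones. All resistant libraries were below all sensitive ones, with sensitive replicate 3 the nearest to them. The HSP90 genes summed to 546, 561 and 532 FPKM in resistant libraries, against 1345, 1308 and 811 FPKM in sensitive ones. The HSP70 genes summed to 501, 526 and 538 FPKM in resistant libraries, against 1403, 1375 and 1009 FPKM in sensitive ones. Neither class sum overlapped between the groups. The DNAJC genes together were at 436, 448 and 439 FPKM in resistant libraries, against 404, 387 and 369 FPKM in sensitive libraries, slightly above them in every pairing of libraries. Sums of HSP110 genes overlapped, at 118, 130.2 and 139 FPKM in resistant and 143, 112 and 76.2 FPKM in sensitive libraries. Summed as 2 families, the heat shock protein genes were at 1601 to 1688 FPKM in resistant and 2632 to 4006 FPKM in sensitive libraries, and the DNAJ genes at 841 to 845 FPKM in resistant and 944 to 994 FPKM in sensitive libraries. No test was run on these sums.

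**Figure D1:**
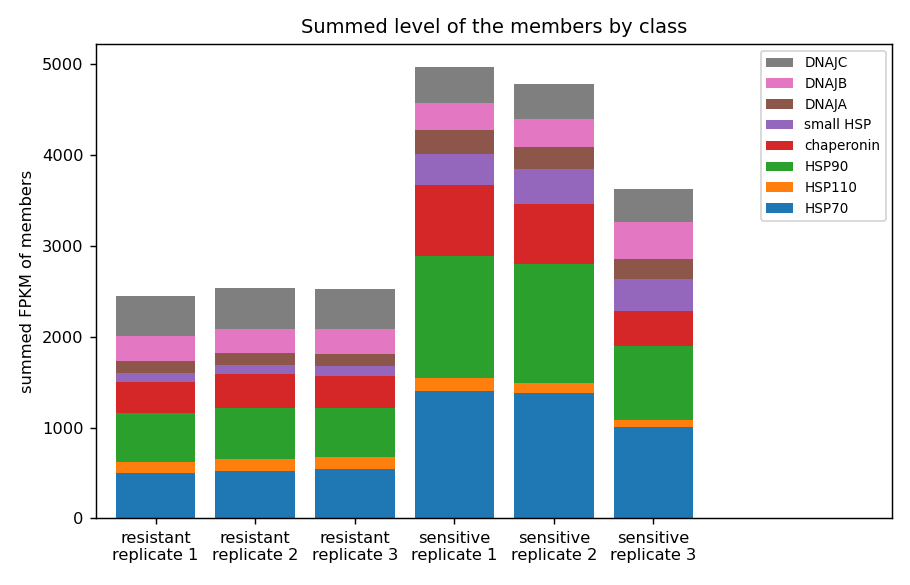
Summed FPKM of the 67 members in each library (y axis, bars from 0), split by class in colour, with the 3 resistant libraries on the left and the 3 sensitive libraries on the right. Resistant bars stand at 2442 to 2532 FPKM and sensitive bars at 3626 to 4971 FPKM, and the HSP90 and HSP70 segments hold most of the distance.

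The test covered 52 of the 67 members, those with at least 1 FPKM in at least 3 libraries. Of these, 11 rose (21.2%), 23 fell (44.2%) and 18 did not pass in limma, at a threshold of 0.05 on p-values adjusted over all tested genes by the Benjamini-Hochberg method. The background was 35.2% higher and 32.5% lower among 11694 tested genes, of which 67.7% were called in all. Fold changes here and below are log2 differences of FPKM + 1, resistant minus sensitive, which understate the change of low genes. The median log2 fold change was -0.10 over the tested members and 0.08 over all tested genes. A change of at least 2-fold was called higher for 5 members (19.7% of all tested genes) and lower for 17 members (18.5% of all tested genes). For 41 of the 52 members the values of the groups were free of overlap, against 74.4% of all tested genes. HSPA2, HSPA1L, HSPB8, DNAJC12 and DNAJC22 met the filter in the sensitive libraries and in none of the resistant ones, which fixed their direction. Of the heat shock protein genes 18 were tested, 2 higher, 12 lower and 4 not passed, with a median of -1.17. Of the DNAJ genes 34 were tested, 9 higher, 11 lower and 14 not passed, with a median of 0.24.

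**Figure D2:**
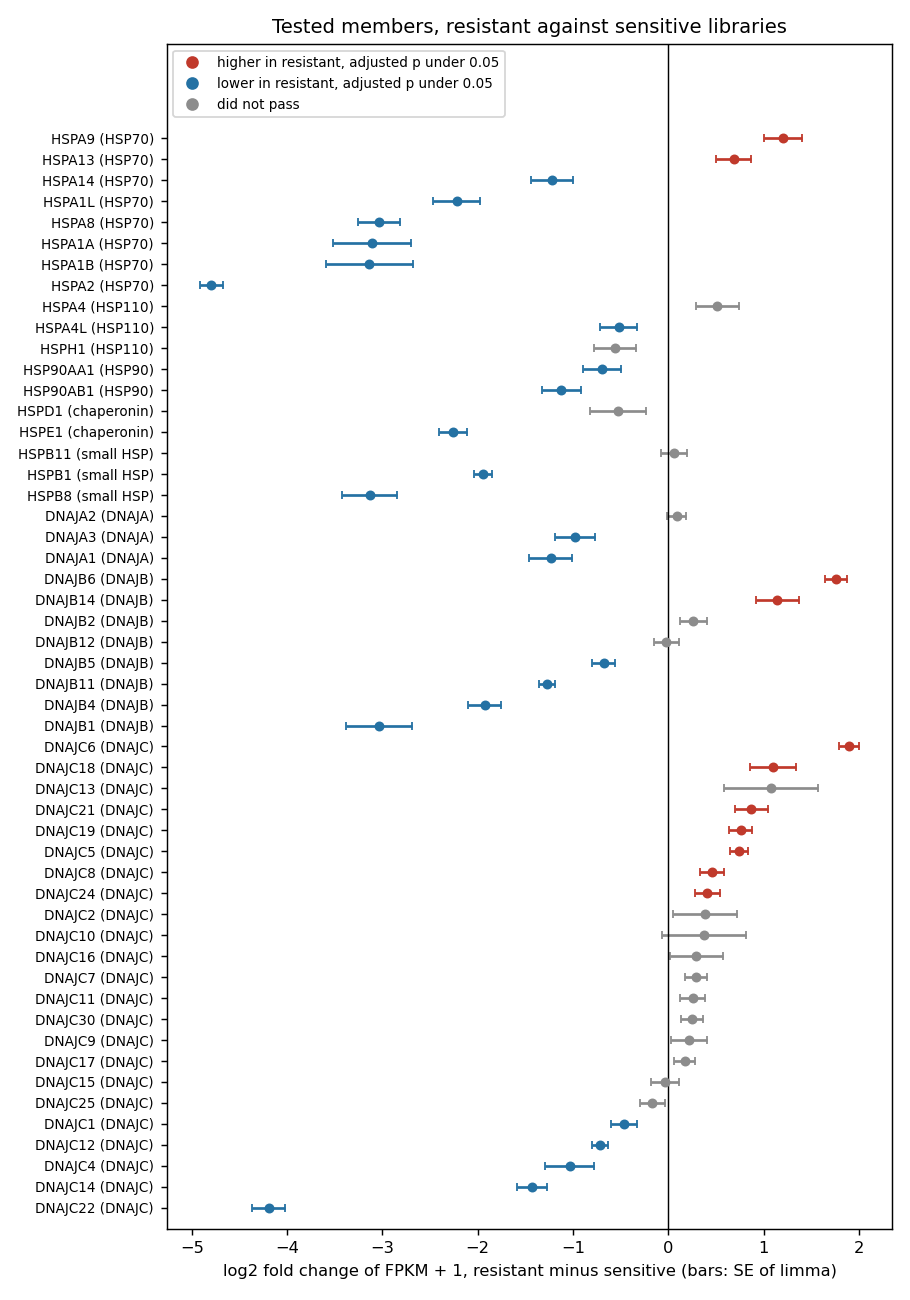
Log2 fold change of FPKM + 1, resistant minus sensitive, for the 52 tested members (x axis), grouped by class down the page, with limma standard errors as bars. Red points were called higher in resistant cells, blue points lower, and grey points did not pass. HSPA2 at -4.79 and DNAJC22 at -4.20 lie farthest to the left, and DNAJC6 at 1.90 and DNAJB6 at 1.76 farthest to the right.

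The sequences below are RefSeq promoter windows on GRCh38.p14, from 250 bases before to 50 after a listed start, and are shown because they hold the repeats to which HSF1 binds, in members that fell and in DNAJB6, which rose. Capitals mark each match to 2 inverted units, GAANNTTC or TTCNNGAA, letters that read the same on both strands. A match to 3 units, GAANNTTCNNGAA or its reverse complement TTCNNGAANNTTC, shows as a capital run of overlapping matches. DNAJB1 has 3 listed starts and HSP90AA1 has 2, and for each the window with the most matches is shown. The windows are HSPA8 at chr11:123062087-123062386 (minus strand), HSPA1A at chr6:31815293-31815592 (plus), HSPA1B at chr6:31827488-31827787 (plus), HSP90AA1 at chr14:102086995-102087294 (minus), DNAJA1 at chr9:33025023-33025322 (plus), DNAJB1 at chr19:14518348-14518647 (minus) and DNAJB6 at chr7:157336754-157337053 (plus).
HSPA8: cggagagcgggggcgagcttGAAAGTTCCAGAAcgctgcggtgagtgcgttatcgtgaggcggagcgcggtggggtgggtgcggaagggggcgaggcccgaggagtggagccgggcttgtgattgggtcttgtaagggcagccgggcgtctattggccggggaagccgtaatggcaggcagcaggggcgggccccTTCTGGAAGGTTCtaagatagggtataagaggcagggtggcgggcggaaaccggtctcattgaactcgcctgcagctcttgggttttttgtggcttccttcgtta
HSPA1A: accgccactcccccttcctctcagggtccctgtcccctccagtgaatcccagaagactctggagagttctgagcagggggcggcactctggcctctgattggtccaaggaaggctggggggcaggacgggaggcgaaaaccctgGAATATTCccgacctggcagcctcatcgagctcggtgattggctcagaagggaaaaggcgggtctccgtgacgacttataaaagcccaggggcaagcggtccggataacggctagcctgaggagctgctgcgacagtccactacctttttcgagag
HSPA1B: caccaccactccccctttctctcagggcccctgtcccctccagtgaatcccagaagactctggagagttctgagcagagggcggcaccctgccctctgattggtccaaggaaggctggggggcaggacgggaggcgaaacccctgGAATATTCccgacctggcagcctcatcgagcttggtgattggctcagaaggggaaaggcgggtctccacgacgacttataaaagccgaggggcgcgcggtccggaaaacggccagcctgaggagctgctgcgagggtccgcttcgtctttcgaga
HSP90AA1: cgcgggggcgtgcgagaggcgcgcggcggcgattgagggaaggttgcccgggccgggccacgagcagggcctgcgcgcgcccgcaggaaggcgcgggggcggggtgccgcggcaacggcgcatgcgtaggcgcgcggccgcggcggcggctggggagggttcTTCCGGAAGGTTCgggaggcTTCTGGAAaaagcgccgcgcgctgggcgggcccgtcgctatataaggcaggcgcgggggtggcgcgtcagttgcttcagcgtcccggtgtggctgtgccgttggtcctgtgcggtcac
DNAJA1: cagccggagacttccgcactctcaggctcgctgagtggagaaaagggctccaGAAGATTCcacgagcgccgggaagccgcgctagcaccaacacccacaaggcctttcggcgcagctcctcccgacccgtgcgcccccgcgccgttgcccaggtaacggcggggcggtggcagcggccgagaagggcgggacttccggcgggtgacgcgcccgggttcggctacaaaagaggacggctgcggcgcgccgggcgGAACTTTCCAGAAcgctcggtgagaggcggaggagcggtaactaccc
DNAJB1: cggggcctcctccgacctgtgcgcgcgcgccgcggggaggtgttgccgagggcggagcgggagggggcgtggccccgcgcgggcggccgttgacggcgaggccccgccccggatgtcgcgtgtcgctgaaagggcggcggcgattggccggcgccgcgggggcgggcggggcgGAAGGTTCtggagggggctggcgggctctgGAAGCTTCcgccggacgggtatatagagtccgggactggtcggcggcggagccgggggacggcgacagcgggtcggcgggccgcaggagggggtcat
DNAJB6: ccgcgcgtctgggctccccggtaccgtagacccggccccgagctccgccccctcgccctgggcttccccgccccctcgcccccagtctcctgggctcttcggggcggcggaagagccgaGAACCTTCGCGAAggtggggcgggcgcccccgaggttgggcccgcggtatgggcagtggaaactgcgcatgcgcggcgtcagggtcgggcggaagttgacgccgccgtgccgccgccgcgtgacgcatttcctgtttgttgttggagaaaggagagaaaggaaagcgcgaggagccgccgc
HSPA8 holds 2 separate matches to 3 units, whereas the capital runs of HSPA1A and of HSPA1B are the same single match to 2 units. The HSPA1A and HSPA1B windows were identical at 277 of 299 aligned bases (92.6%). DNAJB6, which rose, holds a match to 3 units as DNAJA1 and HSP90AA1 do, which fell.

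RefSeq windows were matched for 58 of the 67 members, 75 windows in all, and a gene counted as holding a motif where any of its windows did. Matches to 2 units were held by 21 of 58 members (36.2%), against 14.9% of 15843 protein-coding genes with 22199 windows. Matches to 3 units were held by 7 of 58 members (12.1%: HSPA8, HSPA6, HSP90AA1, HSP90AB1, HSPD1, DNAJA1 and DNAJB6), against 0.537% of protein-coding genes. Among members with windows, 2 units were found in 3 of 10 that rose (HSPA9, DNAJB6 and DNAJC6), in 12 of 20 that fell, in 2 of 17 that did not pass (HSPD1 and DNAJC15) and in 4 of 11 that were not tested. The 12 that fell were HSPA8, HSPA1A, HSPA1B, HSPA1L, HSPA4L, HSP90AA1, HSP90AB1, HSPB1, HSPB8, DNAJA1, DNAJB1 and DNAJB4. HSPA1L and HSPA1A lie back to back, and their windows overlap and share the match. CCAAT boxes (CCAAT or ATTGG) were found in 0 of 10 members that rose, 14 of 20 that fell, 3 of 17 that did not pass and 5 of 11 that were not tested, in all 22 of 58 members (37.9%), against 42.1% of protein-coding genes. These are matches of letters in a window and say nothing about binding.

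All 8 tested HSP70 genes differed between the groups, 6 lower and 2 higher in resistant cells, with a median log2 fold change of -2.63, against 67.7% of all tested genes called and 32.5% lower. HSPA2 and HSPA1L are among the 6 and had their direction fixed by the filter. HSPA8, the constitutive cytosolic HSP70, was at 100.3, 106 and 121 FPKM in resistant libraries, against 1072, 1062 and 635 FPKM in sensitive libraries. Every resistant library was far below every sensitive one, and sensitive replicate 3 was the lowest of its group. HSPA8 averaged 109 ± 10.4 FPKM in resistant and 923 ± 249 FPKM in sensitive cells (means carry the SD over the 3 libraries of a group throughout). The log2 fold change of HSPA8 was -3.04 (SE 0.217, limma adjusted p = 2.37e-05 by Benjamini-Hochberg) and -3.28 without sensitive replicate 3.

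HSPA1A, a heat-inducible cytosolic HSP70, was at 5.82, 4.83 and 5.94 FPKM in resistant libraries, against 39.4, 37.7 and 112 FPKM in sensitive libraries. HSPA1B, its near-identical neighbour, was at 2.91, 2.58 and 3.34 FPKM in resistant libraries, against 22.8, 21.9 and 75.2 FPKM in sensitive libraries. The groups did not overlap for either gene, and sensitive replicate 3 was high, not low, for both. HSPA1A fell by 3.11 on the log2 scale (SE 0.405, limma adjusted p = 0.000472) and HSPA1B by 3.14 (SE 0.453, limma adjusted p = 0.000785). Without sensitive replicate 3 the log2 fold changes were -2.60 for HSPA1A and -2.57 for HSPA1B. These genes share most of their sequence, with 72.6% of the 50-base windows of the HSPA1A transcript also found in HSPA1B, so how reads were divided between them is uncertain.

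HSPA2, an HSP70 known for its role in spermatogenesis, was at 0.189, 0.247 and 0.237 FPKM in resistant libraries, against 30.8, 31.3 and 37.2 FPKM in sensitive libraries. It was near 0 in every resistant library and alike in the 3 sensitive ones, and it had the most negative fold change of the tested members, at -4.79 (SE 0.124, limma adjusted p = 4.54e-07). Its antisense partner HSPA2-AS1 was listed at 0 in the resistant libraries and at 0, 0.178 and 0.184 FPKM in the sensitive libraries, and the strand setting of the counting is not given in the sources used here, so reads of the pair cannot be told apart. HSPA1L, the third HSP70 of the HSPA1 cluster and outside the naming rule, was at 0.324, 0.0827 and 0.266 FPKM in resistant libraries, against 3.63, 3.66 and 7.53 FPKM in sensitive libraries (log2 fold change -2.22, limma adjusted p = 0.000225). It was highest in sensitive replicate 3, as were HSPA1A and HSPA1B. The filter fixed the direction of HSPA1L, as it did that of HSPA2. HSPA14, which acts at the ribosome with the J protein DNAJC2, was at 5.54, 6.40 and 6.17 FPKM in resistant libraries, against 20.5, 16.0 and 11.0 FPKM in sensitive libraries, a log2 fold change of -1.22 (SE 0.216, limma adjusted p = 0.00209).

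The 2 HSP70s of organelles that were tested rose. HSPA9, the mitochondrial HSP70 that pulls imported chains into the matrix, was at 359, 376 and 367 FPKM in resistant libraries, against 192, 182 and 115 FPKM in sensitive libraries. All resistant libraries were above all sensitive ones, and HSPA9 rose by 1.20 on the log2 scale (SE 0.198, limma adjusted p = 0.00150). Without sensitive replicate 3, the lowest library, the log2 fold change of HSPA9 was 0.97. HSPA13, a microsomal HSP70 outside the naming rule, was at 25.9, 28.5 and 33.1 FPKM in resistant libraries, against 20.9, 19.2 and 13.7 FPKM in sensitive libraries, a rise of 0.69 on the log2 scale (limma adjusted p = 0.0128, and 0.0546 without resistant replicate 3). HSPA6, the strictly heat-inducible HSP70, was not tested and stood at 0.0759, 0.0431 and 0.0215 FPKM in resistant and 0.214, 0.275 and 0.559 FPKM in sensitive libraries. The divergent HSP70 relatives HSPA12A, at no more than 1.29 FPKM, and HSPA12B were not tested either.

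**Figure D3:**
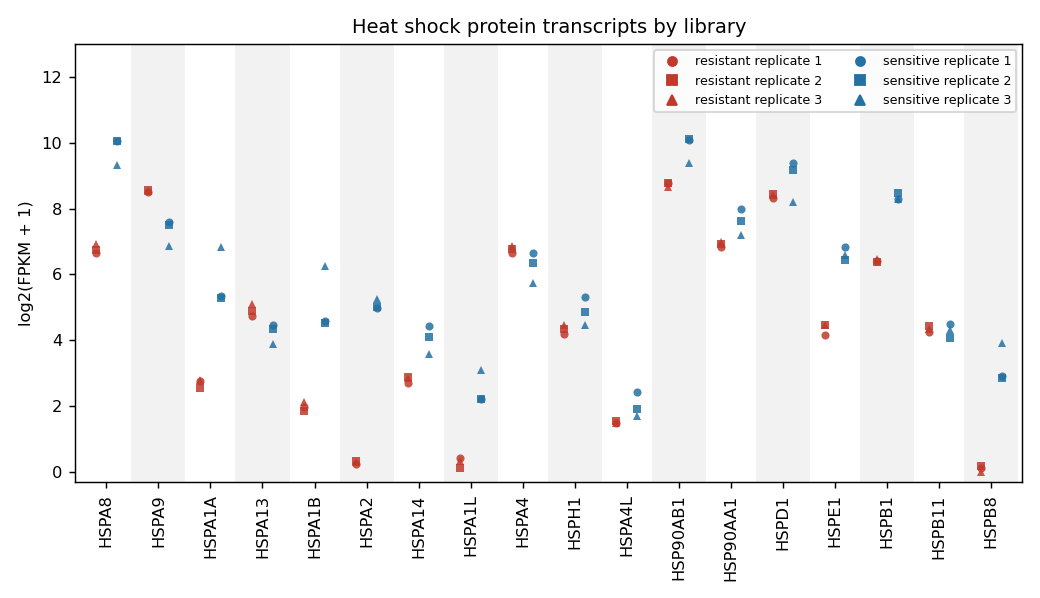
Level of the 18 tested heat shock protein genes as log2(FPKM + 1) (y axis), by gene along the x axis, with resistant libraries in red on the left of each column and sensitive libraries in blue on the right. The marker shape gives the replicate number. HSPA8 lies at 100.3 to 121 FPKM in resistant and 635 to 1072 FPKM in sensitive libraries, and the triangle of sensitive replicate 3 stands above the other sensitive points for HSPA1A, HSPA1B, HSPA1L and HSPB8 and below them for HSPA8, HSP90AB1 and HSPD1.

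Against 35.2% higher and 32.5% lower among all tested genes, the HSP110 genes, which exchange the nucleotide of HSP70, had 0 higher, 1 lower and 2 not passed. HSPA4, the most abundant of them, was at 99.2, 109 and 116 FPKM in resistant libraries, against 99.2, 81.1 and 52.7 FPKM in sensitive libraries (log2 fold change 0.51, 95% interval -0.02 to 1.05, limma adjusted p = 0.0801). The lowest resistant and the highest sensitive library were nearly level. HSPH1, the heat-inducible HSP110, was at 17.3, 19.0 and 21.2 FPKM in resistant libraries, against 39.1, 28.0 and 21.2 FPKM in sensitive libraries (log2 fold change -0.56, 95% interval -1.08 to -0.04, limma adjusted p = 0.0575). Here sensitive replicate 3 was level with the highest resistant library. Both passed without sensitive replicate 3, HSPA4 as higher (0.26, limma adjusted p = 0.0435) and HSPH1 as lower (-0.76, limma adjusted p = 0.00126). HSPA4L, outside the naming rule at 1.77, 1.91 and 1.78 FPKM in resistant and 4.40, 2.76 and 2.27 FPKM in sensitive libraries, was called lower (-0.52, limma adjusted p = 0.0455), a call that ended in 9 of the 15 alternative settings that tested it, which included leaving out any library but sensitive replicate 3 (limma adjusted p from 0.0681 to 0.118).

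Both HSP90 genes fell, as did 32.5% of all tested genes. HSP90AB1, the constitutive cytosolic HSP90, was at 434, 441 and 406 FPKM in resistant libraries, against 1089.9, 1111 and 664 FPKM in sensitive libraries. The groups did not overlap, and sensitive replicate 3 was again the nearest to the resistant libraries. Its mean was 427 ± 18.3 FPKM in resistant and 955 ± 252 FPKM in sensitive cells, a log2 fold change of -1.12 (SE 0.206, limma adjusted p = 0.00254). HSP90AA1, the inducible form, was at 112, 120.3 and 126 FPKM in resistant libraries, against 255, 197 and 146 FPKM in sensitive libraries, a log2 fold change of -0.70 (SE 0.199, limma adjusted p = 0.0179). The groups did not overlap, but the call of HSP90AA1 ended in 6 alternatives, among them quantile normalization (limma adjusted p = 0.0627) and the leaving out of resistant replicate 1 (0.0654), resistant replicate 2 (0.0545) or sensitive replicate 2 (0.0522), and was kept without sensitive replicate 3 (limma adjusted p = 0.000112).

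The 2 genes of the mitochondrial chaperonin, which share a promoter region and encode the barrel and its lid, were not called alike, and the difference between their changes was not tested. HSPE1, the lid, was at 17.0, 21.1 and 21.1 FPKM in resistant libraries, against 114, 86.2 and 95.4 FPKM in sensitive libraries. The groups were far apart, and HSPE1 fell by 2.26 on the log2 scale (SE 0.145, limma adjusted p = 1.43e-05). HSPD1, the barrel subunit, was at 317, 346 and 339.9 FPKM in resistant libraries, against 661, 579 and 293 FPKM in sensitive libraries. Sensitive replicate 3 lay under all resistant libraries and sensitive replicates 1 and 2 well above them, so the groups overlapped and HSPD1 did not pass (log2 fold change -0.53, 95% interval -1.23 to 0.17, limma adjusted p = 0.149). Without sensitive replicate 3 HSPD1 was called lower (-0.89, limma adjusted p = 1.9e-05). RefSeq lists 28 pseudogene symbols for HSPE1, 22 for HSPD1 and 20 for HSPA8, and how reads that match such copies were assigned is uncertain.

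Among the small heat shock proteins only HSPB1, HSPB8 and HSPB11 were tested, of which the first 2 fell, against 32.5% of all tested genes. HSPB1, known as HSP27, was at 84.3, 81.5 and 87.2 FPKM in resistant libraries, against 312, 357 and 315 FPKM in sensitive libraries. The 3 sensitive libraries were alike and all far above the resistant ones, and HSPB1 fell by 1.94 on the log2 scale (SE 0.0968, limma adjusted p = 4.48e-06). HSPB8, the partner of the HSP70 cofactor BAG3 in autophagy and outside the naming rule, was at 0.0823, 0.123 and 0 FPKM in resistant libraries, against 6.53, 6.20 and 14.2 FPKM in sensitive libraries (log2 fold change -3.13, limma adjusted p = 7.89e-05). HSPB8 was near 0 in the resistant libraries, so the filter fixed its direction, and it was highest in sensitive replicate 3. HSPB11, an intraflagellar transport subunit despite its symbol, was at 18.0, 20.8 and 19.3 FPKM in resistant and 21.3, 15.7 and 18.9 FPKM in sensitive libraries, and the groups overlapped (log2 fold change 0.06, 95% interval -0.27 to 0.39). The other small heat shock protein symbols were at most 0.329 FPKM, and HSPB3 and HSPB7, known from muscle, were listed at 0 in all 6 libraries.

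DNAJA genes encode the J proteins closest to bacterial DnaJ, and 2 of 3 fell, against 32.5% of all tested genes. DNAJA1, a farnesylated cytosolic partner of HSPA8, was at 51.2, 53.3 and 58.3 FPKM in resistant libraries, against 163, 146 and 89.0 FPKM in sensitive libraries. It did not overlap between the groups and fell by 1.23 on the log2 scale (SE 0.225, limma adjusted p = 0.00248). DNAJA3, the J protein of the mitochondrial matrix, was at 37.1, 35.4 and 30.8 FPKM in resistant libraries, against 56.7, 59.7 and 96.0 FPKM in sensitive libraries, and fell by 0.98 (SE 0.211, limma adjusted p = 0.00528). Its sensitive replicate 3 stood above the other sensitive libraries, unlike that of DNAJA1. DNAJA2, a cytosolic paralogue outside the naming rule, was nearly level at 43.5, 45.2 and 47.8 FPKM in resistant and 42.0, 45.8 and 40.3 FPKM in sensitive libraries (log2 fold change 0.09, 95% interval -0.15 to 0.32).

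Of 8 tested DNAJB genes, 2 were higher, 4 lower and 2 not passed, against 35.2% higher and 32.5% lower among all tested genes. DNAJB1, the heat-inducible HSP40 that works with cytosolic HSP70 in disaggregation, was at 7.09, 7.05 and 7.05 FPKM in resistant libraries, against 46.7, 49.4 and 119 FPKM in sensitive libraries. The resistant libraries were almost equal, and sensitive replicate 3 was more than 2-fold above the other sensitive libraries. DNAJB1 averaged 7.06 ± 0.0276 FPKM in resistant and 71.8 ± 41.2 FPKM in sensitive cells, a log2 fold change of -3.04 (SE 0.345, limma adjusted p = 0.000237) and of -2.60 without sensitive replicate 3.

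DNAJB6, which keeps polyglutamine and other aggregating proteins soluble, was at 139.9, 127 and 137 FPKM in resistant libraries, against 34.2, 41.8 and 41.6 FPKM in sensitive libraries. Every resistant library was above every sensitive one by far more than the spread within a group, and DNAJB6 rose by 1.76 on the log2 scale (SE 0.114, limma adjusted p = 1.49e-05). DNAJB11, an HSPA5 co-chaperone in the endoplasmic reticulum, was at 67.0, 70.5 and 66.0 FPKM in resistant libraries, against 164, 161 and 171 FPKM in sensitive libraries, and fell by 1.27 (SE 0.0868, limma adjusted p = 1.92e-05). The 3 libraries of each group were close for DNAJB11, sensitive replicate 3 included. Outside the naming rule, DNAJB4, a heat-inducible relative of DNAJB1, was at 0.653, 0.952 and 1.16 FPKM in resistant and 7.15, 4.95 and 6.92 FPKM in sensitive libraries (log2 fold change -1.93), and DNAJB5 was lower by a log2 fold change of -0.68. DNAJB14, a J protein of the endoplasmic reticulum membrane, was at 4.64, 4.46 and 5.66 FPKM in resistant and 2.56, 1.71 and 0.969 FPKM in sensitive libraries (log2 fold change 1.14, limma adjusted p = 0.00342). Its membrane paralogue DNAJB12 did not pass (-0.02, 95% interval -0.33 to 0.29), nor did DNAJB2 (0.26, 95% interval -0.07 to 0.60).

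DNAJC genes, a mixed class that shares little with the others beyond the J domain, had 7 higher, 5 lower and 11 not passed of 23 tested, with a median log2 fold change of 0.29. That was 30.4% higher and 21.7% lower, against 35.2% and 32.5% of all tested genes. Among the 5 lower, DNAJC12 and DNAJC22 had their direction fixed by the filter. DNAJC6, the auxilin that uncoats clathrin vesicles with HSPA8, was at 9.01, 9.70 and 9.72 FPKM in resistant libraries, against 1.79, 1.84 and 1.80 FPKM in sensitive libraries. Replicates were tight in both groups, and DNAJC6 rose by 1.90 on the log2 scale (SE 0.106, limma adjusted p = 7.63e-06). DNAJC8, a splicing-associated J protein and the most abundant of the class, was at 108, 106 and 112 FPKM in resistant libraries, against 72.3, 72.2 and 93.7 FPKM in sensitive libraries, and rose by 0.46 (SE 0.127, limma adjusted p = 0.0158). That call ended without resistant replicate 1 (limma adjusted p = 0.0501), resistant replicate 3 (0.0589) or sensitive replicate 2 (0.0610), and with scaling to the geometric mean (0.0828). The other members of the class that rose, outside the naming rule, were DNAJC18 (1.10), the ribosome biogenesis factor DNAJC21 (0.87), the mitochondrial import subunit DNAJC19 (0.76), the cysteine-string protein DNAJC5 (0.75) and the diphthamide synthesis factor DNAJC24 (0.41). The call of DNAJC24 ended without any of the resistant libraries or sensitive replicate 2 (limma adjusted p from 0.0515 to 0.102). DNAJC5 was at 53.6, 50.8 and 50.1 FPKM in resistant libraries, against 28.3, 31.7 and 31.0 FPKM in sensitive libraries, and the groups did not overlap.

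DNAJC22, a membrane J protein whose fly homologue acts in clathrin-mediated uptake, was at 0.269, 0.363 and 0.462 FPKM in resistant libraries, against 26.8, 27.5 and 18.7 FPKM in sensitive libraries. It was near 0 in every resistant library, so the filter fixed its direction. The log2 fold change was -4.20 (SE 0.174, limma adjusted p = 2.13e-06). DNAJC14, a membrane J protein that interacts with a dopamine receptor, was at 7.48, 8.20 and 8.20 FPKM in resistant libraries, against 20.3, 20.8 and 29.2 FPKM in sensitive libraries, and fell by 1.43 (SE 0.160, limma adjusted p = 0.000219). DNAJC4 was at 7.81, 7.18 and 8.64 FPKM in resistant libraries, against 14.1, 13.4 and 26.5 FPKM in sensitive libraries, and fell by 1.03 (SE 0.256, limma adjusted p = 0.00984). For both genes sensitive replicate 3 was the highest library, and without it the log2 fold change of DNAJC4 was -0.74. Outside the naming rule DNAJC1 fell (-0.47), a call that ended without resistant replicate 2 or 3 (limma adjusted p = 0.0583 and 0.0751). Also outside the rule, DNAJC12, a partner of aromatic amino acid hydroxylases, was called lower, with its direction fixed by the filter. It was at 0.374, 0.434 and 0.217 FPKM in resistant and 1.22, 1.19 and 1.20 FPKM in sensitive libraries.

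DNAJC7, which binds HSP70 and HSP90 through its tetratricopeptide repeats, was at 66.1, 71.0 and 61.1 FPKM in resistant libraries, against 59.1, 55.0 and 47.5 FPKM in sensitive libraries, and did not pass (log2 fold change 0.29, 95% interval 0.01 to 0.57, limma adjusted p = 0.0640). The endosomal DNAJC13, outside the naming rule, was at 11.7, 14.4 and 14.3 FPKM in resistant and 11.0, 8.04 and 1.95 FPKM in sensitive libraries, where replicate 3 stood far below the others. It did not pass (log2 fold change 1.08, limma adjusted p = 0.0906), and both genes were called higher without sensitive replicate 3, at 0.21 for DNAJC7 (limma adjusted p = 0.0461) and 0.47 for DNAJC13 (limma adjusted p = 0.0149). DNAJC2, DNAJC9, DNAJC10, DNAJC11, DNAJC15, DNAJC16, DNAJC17, DNAJC25 and DNAJC30 did not pass, with log2 fold changes from -0.17 for DNAJC25 to 0.39 for DNAJC2. DNAJC27, DNAJC28, DNAJC5B, DNAJC5G, DNAJB7 and DNAJB13 were under the filter and were not tested.

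**Figure D4:**
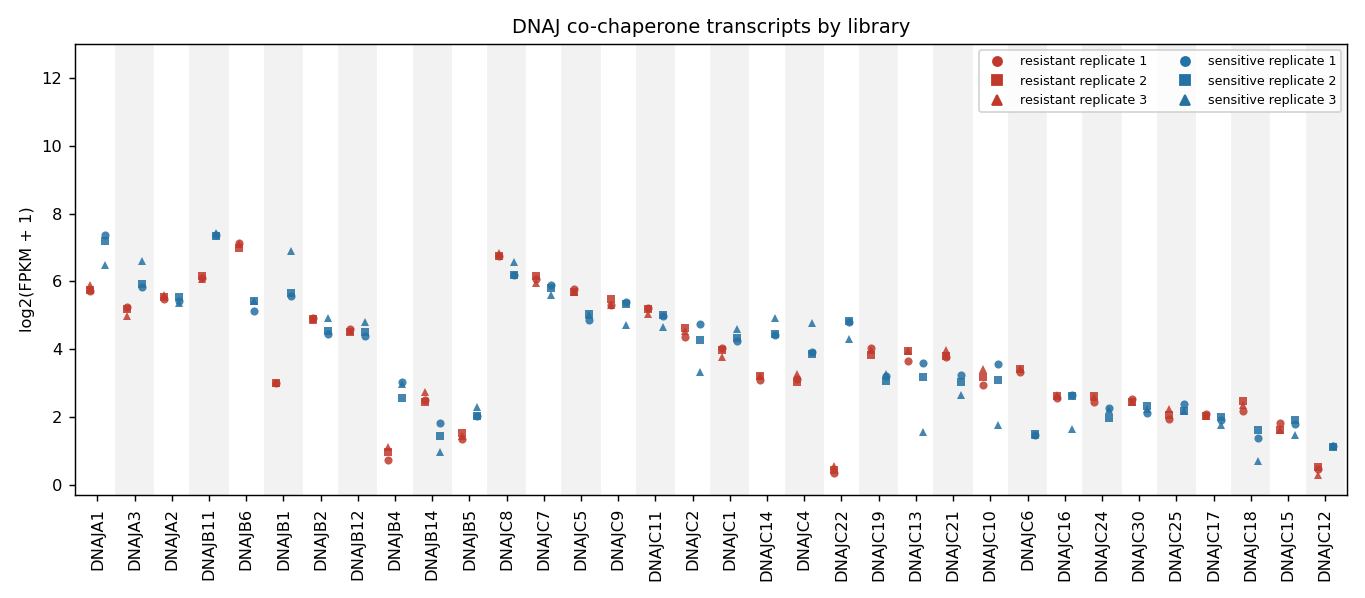
Level of the 34 tested DNAJ genes as log2(FPKM + 1) (y axis), by gene along the x axis, with resistant libraries in red on the left of each column and sensitive libraries in blue on the right, and the marker shape for the replicate number. DNAJB1 and DNAJC22 lie far lower in the resistant libraries, DNAJB6 and DNAJC6 lie higher there, and many of the DNAJC columns overlap or nearly meet.

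Ratios taken within each library do not depend on its total and describe how the levels of 2 members, or of 2 sums, stood to each other. HSPA9 and DNAJB6 were called higher, and HSPA8 and DNAJB1 lower. The separate ratios of these pairs follow from those differences and add no support to them. All the ratios are descriptions with no test. HSPA9 stood to HSPA8, the mitochondrial to the main cytosolic HSP70, at 3.58, 3.55 and 3.05 in resistant libraries, against 0.180, 0.171 and 0.181 in sensitive libraries. HSPA4 stood to HSPA8 at 0.989, 1.03 and 0.960 in resistant libraries, against 0.0925, 0.0764 and 0.0830 in sensitive libraries. The exchange factor was thus level with HSPA8 in resistant cells, while in sensitive cells HSPA8 was far above it, replicate 3 included. DNAJB6 stood to DNAJB1 at 19.7, 18.0 and 19.4 in resistant libraries, against 0.733, 0.847 and 0.348 in sensitive libraries. HSPD1 stood to HSPE1 at 18.6, 16.4 and 16.1 in resistant libraries, against 5.80, 6.72 and 3.07 in sensitive libraries. DNAJB6 outweighed DNAJB1 in resistant cells alone, and neither ratio overlapped between the groups. HSP90AB1 stood to HSP90AA1 at 3.87, 3.66 and 3.22 in resistant libraries, against 4.27, 5.65 and 4.54 in sensitive libraries, lower in resistant cells by less than 2-fold in every pairing of libraries. HSPA1A stood to HSPA8 at 0.0580, 0.0457 and 0.0492 in resistant libraries, against 0.0368, 0.0355 and 0.177 in sensitive libraries. In that last ratio the resistant libraries lay between sensitive replicates 1 and 2 and sensitive replicate 3. The summed DNAJ genes stood to the summed HSP70 genes at 1.68, 1.60 and 1.57 in resistant libraries, against 0.688, 0.687 and 0.986 in sensitive libraries.

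**Figure D5:**
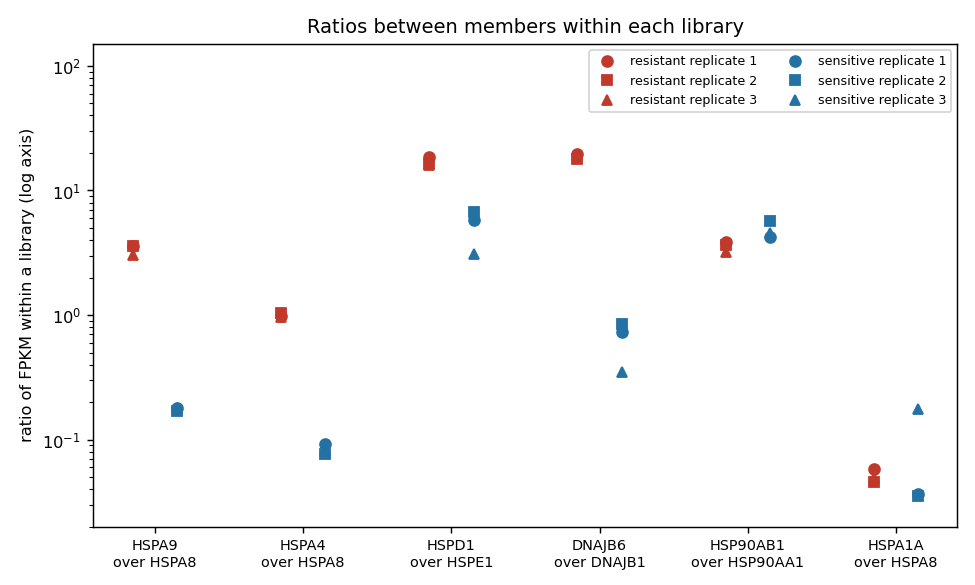
Ratio of the FPKM of 2 members within each library (y axis, log scale), with resistant libraries in red on the left and sensitive libraries in blue on the right of each of 6 pairs, and the marker shape for the replicate number. HSPA9 over HSPA8 lies at 3.05 to 3.58 in resistant and 0.171 to 0.181 in sensitive libraries, whereas HSPA1A over HSPA8 in resistant libraries lies between the sensitive points.

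Grouped by induction and by compartment, most of the members on a list of heat-inducible genes fell. The 14 are HSPA1A, HSPA1B, HSPA6, HSPA8, HSPA4L, HSPH1, HSP90AA1, HSP90AB1, HSPD1, HSPE1, HSPB1, DNAJA1, DNAJB1 and DNAJB4. Of 13 tested of 14, 0 rose, 11 fell and 2, HSPD1 and HSPH1, did not pass, against 32.5% lower among all tested genes, with a median log2 fold change of -1.93. The list includes HSPA8 and HSP90AB1, described above as constitutive, and both are among the 11 that fell. This list was drawn up with results of these libraries known, so its count is not independent evidence of a direction. Mitochondrial members gave 2 higher (HSPA9 and DNAJC19), 2 lower (HSPE1 and DNAJA3) and 4 not passed of 8, with a median of 0.11. Members of the endoplasmic reticulum gave 2 higher, 2 lower and 3 not passed of 7, with a median of -0.02. The 2 lower were DNAJB11 and DNAJC1, and 1 was left without resistant replicate 2 or 3, where DNAJC1 did not pass, while of the 2 higher, HSPA13 and DNAJB14, 1 was left without resistant replicate 3, where HSPA13 did not pass. The shares were 25% in each direction for mitochondria and 28.6% in each for the endoplasmic reticulum, against 35.2% higher and 32.5% lower of all tested genes. With 8 and 7 genes tested, these differences are too small to read as a trait of either compartment.

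Sensitive replicate 3 differed from the other sensitive libraries both in the members and over all tested genes, and not in a single direction. The median coefficient of variation of the tested members was 7.43% in resistant and 21.9% in sensitive libraries, and 5.68% in the sensitive libraries without replicate 3. Over all tested genes it was 8.50% in resistant and 22.5% in sensitive libraries. HSPA1A, HSPA1B, DNAJB1 and HSPB8 were at least 2-fold above the mean of sensitive replicates 1 and 2 in replicate 3, 4 of 52 members (7.69%) against 2.45% of all tested genes. HSPD1, DNAJC2, DNAJC10 and DNAJC13 were at least 2-fold below it, 4 of 52 members (7.69%) against 6.78% of all tested genes. Without that library 15 members were higher and 25 lower in resistant cells, against 40.5% and 40.2% of all tested genes. HSPD1 and HSPH1 gained a call as lower, and HSPA4, DNAJB2, DNAJC7 and DNAJC13 as higher, and 0 members lost one.

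The regulators and partners of these chaperones were read from the same fit. Among the heat shock factor genes HSF1, HSF2 and HSF4 and the HSF1-binding HSBP1, 1 rose, 0 fell and 3 did not pass. That was 25% higher and 0% lower, against 35.2% and 32.5% of all tested genes. HSF1, the main activator of the heat shock response, was at 42.3, 40.1 and 38.5 FPKM in resistant libraries, against 24.0, 27.7 and 37.1 FPKM in sensitive libraries, a log2 fold change of 0.46 (limma adjusted p = 0.0441). That call ended when any library but sensitive replicate 3 was left out (limma adjusted p from 0.0899 to 0.128). HSBP1 did not pass (-0.19), and HSF4 was called lower without sensitive replicate 2 (limma adjusted p = 0.0153). Of 14 HSP70 cofactor genes 0 rose, 8 fell and 6 did not pass, with a median of -0.47, against 35.2% higher and 32.5% lower among all tested genes. Without any of the resistant libraries 4 were called lower, as BAG2, BAG3, HSCB and SIL1 lost their calls (limma adjusted p from 0.0595 to 0.113). STUB1, a ubiquitin ligase that marks clients of HSP70 and HSP90, averaged 38.7 ± 0.548 FPKM in resistant and 99.9 ± 14.5 FPKM in sensitive cells (-1.33), BAG1 had a log2 fold change of -0.99 and SIL1 of -0.91, whereas ST13 did not pass (-0.21, limma adjusted p = 0.0647). ST13 gained a call as lower without sensitive replicate 3 (limma adjusted p = 0.0173). Of 13 tested HSP90 cofactor genes 0 rose, 8 fell and 5 did not pass, with a median of -0.58. CDC37, which loads kinases onto HSP90, averaged 106 ± 2.67 FPKM in resistant and 235 ± 34.5 FPKM in sensitive cells (-1.13), the myosin co-chaperone UNC45A had a log2 fold change of -1.29 and PPID of -0.80, and FKBP4 did not pass (-0.08). PPID lost its call without resistant replicate 1 or 2 (limma adjusted p = 0.0726 and 0.0570), and FKBP4 gained one as lower without sensitive replicate 3 (0.0270).

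Other genes known as heat shock targets gave 5 higher, 7 lower and 5 not passed of 17, with a median of -0.08. These were 29.4% higher and 41.2% lower, against 35.2% and 32.5% of all tested genes. CRYAB, among the 7, was under 1 FPKM in every resistant library, so the filter fixed its direction. Without resistant replicate 2 or 3, BAG3 and STIP1 lost their calls as lower (limma adjusted p from 0.0588 to 0.0916). UBB lost its call as higher without resistant replicate 1 or 3 or sensitive replicate 1 or 2. IER5 and DEDD2 gained calls as higher and FKBP4 as lower without sensitive replicate 3, and CHORDC1 as higher without sensitive replicate 1. ATF3, a stress-induced transcription factor, averaged 57.9 ± 8.95 FPKM in resistant and 7.10 ± 3.36 FPKM in sensitive cells (2.93), and the heme oxygenase HMOX1 averaged 273 ± 48.6 FPKM in resistant and 72.1 ± 15.4 FPKM in sensitive cells (1.91). MRPL18, a mitochondrial ribosomal protein, averaged 39.0 ± 3.13 FPKM in resistant and 127 ± 9.69 FPKM in sensitive cells (-1.68). Genes of the cytosolic chaperonin TRiC and of prefoldin gave 5 higher, 5 lower and 4 not passed of 14. That was 35.7% in each direction, near the shares of all tested genes. PFDN6 was at -1.98, TCP1 at -1.44, PFDN2 at 1.42 and CCT7, which did not pass, at 0.27. Partners of the mitochondrial chaperones gave 0 higher, 7 lower and 4 not passed of 11 tested, with the proteases LONP1 at -1.11 and AFG3L2, which did not pass, at 0.03, the unfoldase CLPX at -0.95 and the mitochondrial HSP90 TRAP1 at -0.84. Of these, 4 were called lower without resistant replicate 2 or without resistant replicate 3, as CLPP, HSCB and TIMM44 lost their calls (limma adjusted p from 0.0656 to 0.108), and 32.5% of all tested genes were lower.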

How the data were processed

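Cells labelled PLC/PRF/5 were profiled by RNA-seq in 2 groups of 3 libraries, grouped and numbered by their titles. Each library has its own deposited table of gene symbols with a single value each. These values behave as FPKM, relative to library size and transcript length as the authors computed them, a reading inferred from the values that RPKM would meet as well. Per the submitters' processing notes, cutadapt trimmed the reads and HISAT2 aligned them. Not given in the sources used here are the versions, the counter, the build, the annotation and any use of strand. Read counts are not analysed here, and a listed 0 may come from an estimate that failed.

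Genes with at least 1 FPKM in at least 3 libraries were tested two-sided by limma-trend (limma 3.58.1 under R 4.3.3) on log2(FPKM + 1), a pseudocount of 1, in 1 fit of group over all 6 libraries with 4 residual and 2.75 prior degrees of freedom. A gene was called at a Benjamini-Hochberg adjusted p under 0.05 over all tested genes. The fit was checked on simulated data. Intervals are 95% limits of the fit. Named members had a mean of at least 5 FPKM and a called log2 fold change of at least 1 in size (at most 20), or were the 2 of highest mean in their class, 25 in all. Members named outside this rule were chosen after their values were seen. From each of 6 lists of partner genes the 3 largest called changes and the highest gene that did not pass were named. The members, lists and markers were chosen with earlier results of these data known. Promoter windows came from RefSeq (GRCh38.p14), and transcript windows of 50 bases were compared in GENCODE 29. Tables and figures used Biopython 1.88, matplotlib 3.10.9, scipy 1.17.1, numpy 2.4.6 and pandas 2.3.3 under Python 3.11.15.

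The 16 alternatives were no filter, limma without the trend, the robust form of limma-trend, rescaling without mitochondrial mRNAs, scaling to the geometric mean sample, quantile normalization, a filter on the mean (5 FPKM), a smaller pseudocount (0.1), a replicate block, testing against 1.5-fold and each of the 6 libraries left out.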

Additional observations from a re-analysis of the deposited data

How the results depend on the processing

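Of the 34 called members, 19 kept their call in the same direction in every alternative that tested them (3 higher and 16 lower), 15 lost it in at least 1 and 0 changed sign. With a mean of at least 5 FPKM, 7396 genes were tested, 2465 higher and 2508 lower, because fewer genes entered. The test against a 1.5-fold change, stricter by construction, called 2217 genes higher and 2140 lower, 3 members higher and 16 lower, and 6 genes higher and 11 lower on the lists of partner genes. Leaving out each library in turn gave 8 to 15 members higher and 20 to 25 lower, 3468 to 4738 genes higher and 3207 to 4704 lower, and 9 to 13 partner genes higher and 22 to 36 lower. For libraries of the same replicate number, deviations from the group means correlated at -0.42, 0.07 and -0.23. For pairs of unlike number the range was -0.15 to 0.35. Deviations within a group of 3 are tied to each other, so these values cannot decide whether equal numbers mark shared handling. With the replicate block 10 members were higher and 21 lower, 3716 genes higher and 3477 lower, and 10 partner genes higher and 26 lower. The other alternatives kept these counts within 1.5 times. Changes of sign were seen in members that did not pass. DNAJB12 turned to 0.0062 with quantile normalization and 0.061 after rescaling without mitochondrial mRNAs, DNAJC15 to 0.016 after that rescaling, and HSPB11 to -9.11e-05 when scaled to the geometric mean. With each library left out in turn, the log2 fold change of DNAJB12 ranged from -0.10 to 0.10, of DNAJC2 from -0.0030 to 0.70, of DNAJC10 from -0.15 to 0.75, of DNAJC15 from -0.17 to 0.058, of DNAJC16 from -0.039 to 0.47 and of HSPB11 from -0.054 to 0.15. The cause of these changes was not tested. Depth was compared between libraries only over ratios near 1, and members under 1 FPKM rest on few reads.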
